A study of Oryza sativa with 24 samples.

Results

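The rice accession IRAT109 was compared with the accessions Geng87-304 and Youmangzaogeng on 9 of the 24 arrays of the study, the 3 arrays of IRAT109 and the 6 arrays of the other pair. Each accession had 1 array before cold, 1 after 6 h and 1 after 24 h in a chamber at 4 °C with 14 h of light and 10 h of dark. Seedlings at the 4-leaf stage were sampled as shoot and leaf tissue, and the labels name plants by accession alone, with no transgene or mutant allele and no word on pooling or separate plantings. The measurement was the intensity of each probe set, a group of short probes for one transcript, on an Affymetrix rice array.

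IRAT109 is known as an upland rice, grown on soil that is not flooded, and Geng87-304 and Youmangzaogeng were taken as lowland accessions of the japonica group. The labels do not state this ecology. Upland rice meets dry soil more often than paddy rice, and the genes that plants use against drying include those of the late embryogenesis abundant (LEA) proteins and dehydrins, small hydrophilic proteins that accumulate in seeds and in water-stressed leaves under abscisic acid. Rice leaves also defend themselves with diterpenoid phytoalexins, antimicrobial compounds made by diterpene cyclases and cytochrome P450 enzymes, and with jasmonate, a hormone made from fatty acids by lipoxygenases and held in check by JAZ repressors.

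Differences were fitted in limma as IRAT109 minus the other pair of accessions on log2(intensity + 32), with time as a block, and a probe set was called at a Benjamini-Hochberg adjusted p under 0.05 over all 57194 probe sets. A difference on this scale understates that of dim genes. Only 1 accession was set against 2, so with the accession as the unit an exact test cannot go below p = 0.333. The adjusted p-values therefore describe these 3 accessions over the spread of their arrays, and not upland or lowland rice. A lower signal and a difference in gene sequence under the probes cannot be told apart, and neither can fewer cells of a type and less RNA per cell.

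The 9 arrays had median intensities of 44.8 to 46.7. The number of arrays limits the precision. RNA quality as read from the actin control, where the 3′ probe sets are set against the 5′ ones, differed between the groups without overlap, with log2 ratios of 2.47 to 2.61 in IRAT109 and 2.75 to 3.37 in the others. The same ratios of the GAPDH control were 1.95 to 2.06 in IRAT109 and 2.12 to 2.48 in the others, also without overlap. The part of RNA quality in the differences was not tested. Of the 7 measured shoot markers, genes of photosynthesis and Rubisco, 6 read above the array background, none was called by limma and none had an unadjusted p under 0.05, and their summed intensity overlapped between the groups, at 41748 to 45492 in IRAT109 and 38762 to 45756 in the others. The summed intensity of 5 root markers was higher in IRAT109 at each time, with 3128 before cold, 3214 at 6 h and 2123 at 24 h. The same sum was 2868, 2012 and 1421 in Geng87-304, and 1922, 1200 and 724 in Youmangzaogeng. All 5 root markers read above the array background on at least 1 of the 9 arrays, and their median log2 difference was 1.34. Of the 5, 3 were higher in IRAT109 at an unadjusted p under 0.05 and none lower, and 1, NAAT1, was called. A pair of arrays outside the comparison, Lixingeng before cold and MH63 at 24 h, carried signal of both accessions. At LOC4341377 they read 4644 and 4980, while the other arrays of Lixingeng read 7880.0 and 6691 and those of MH63 23 and 19.7. Levels of Lixingeng and MH63 below include them unless stated otherwise.

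IRAT109 differed from the other pair at many more probe sets than those differed from each other. Of 57194 probe sets, 7134 were called (12.5%), 3865 higher in IRAT109 (6.76%) and 3269 lower (5.72%), and 1100 of the calls were at least 2-fold (1.92%). Taken pair by pair with 3 arrays each, IRAT109 differed from Geng87-304 at 9295 probe sets (16.3%), with 8.32% higher and 7.93% lower, and from Youmangzaogeng at 8122 (14.2%), with 7.9% higher and 6.3% lower. Geng87-304 differed from Youmangzaogeng at 1887 (3.3%), with 1.59% higher and 1.71% lower. At least 2-fold differences numbered 1418 (2.48%), 1118 (1.95%) and 304 (0.532%) in that order. Over the 17905 genes with 1 representative probe set each, 3840 were called (21.4%), 1987 higher (11.1%) and 1853 lower (10.3%), with 632 at least 2-fold (3.53%), and the median difference of all genes was -0.0012 on the log2 scale. The count of 7134 fell to 3346 without the 6 h array of IRAT109 and to 4096 without its array before cold.

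**Figure D1:**
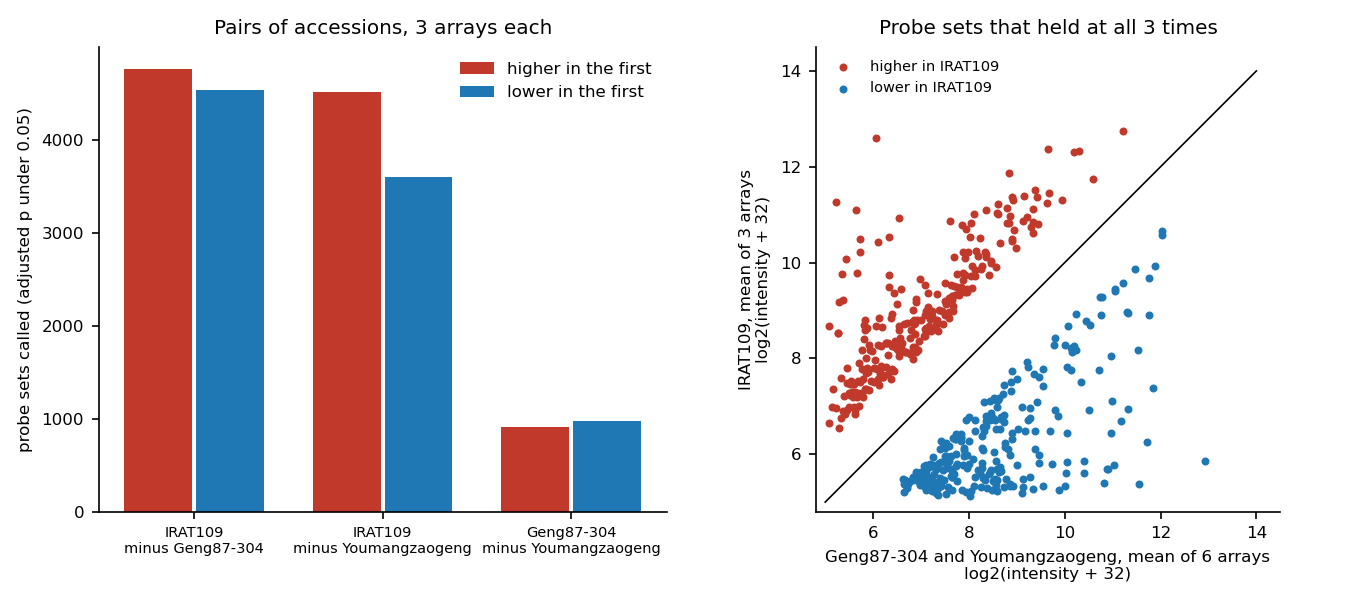
Left, probe sets called in each pair of accessions (bars from 0, 3 arrays against 3), higher or lower in the accession named first: the pair of lowland accessions had 1887 calls against 9295 and 8122 for the pairs with IRAT109. Right, mean log2(intensity + 32) of the 516 probe sets that held at all 3 times, the 6 other arrays on the horizontal axis and the 3 arrays of IRAT109 on the vertical, with the line of equal level; the band without points around the line is set by the rule of at least 2-fold.

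A difference was taken to hold when the probe set was called and IRAT109 stood at least 2-fold from both other accessions, in 1 direction, before cold, at 6 h and at 24 h. It held for 516 probe sets (0.902%), 258 higher in IRAT109 (0.451%) and 258 lower (0.451%). Of the 17905 genes it held for 272 (1.52%), 141 higher (0.787%) and 131 lower (0.732%). Many of these were differences between a signal and none. In 178 of the 258 lower probe sets no array of IRAT109 exceeded all of the 10 probe sets for genes of the fungus Magnaporthe, which served as controls and stood for array background. In 112 of the 258 higher ones no array of the other pair of accessions did. Where a group was never above these controls, its level is a bound, and a fold printed as "at least" is a minimum against the controls or the own signal, whichever was higher, on unshifted log2 values. Differences on the log2 scale are between the values as measured and are no bounds. Below, 3 values in a row are intensities before cold, at 6 h and at 24 h. Gene lists were filled by symbol or synonym alone. Members of a family without a matching name are not counted, so a share of a list is not that of the family.

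Dehydrin genes of the RAB16 family and the LEA gene LEA19 were higher in IRAT109 before cold and at both later times. Of 6 measured genes listed by name as LEA proteins or dehydrins, limma called 4 higher and none lower, beside 11.1% and 10.3% of all genes. The counts were the same at an unadjusted p under 0.05. The median log2 difference of the 6 started at 2.04, was 2.27 after 6 h and 2.17 after 24 h. RAB21 (LOC4350454, chromosome 11), a dehydrin first known as responsive to abscisic acid and drying, read 3304, 4107 and 3820.5 in IRAT109, 356, 344 and 499.7 in Geng87-304 and 419.5, 429 and 529 in Youmangzaogeng. Every array of IRAT109 lay above every other array, and the difference was 3.04 ± 0.12 (SE), adjusted p = 3.26e-07, or 8.24-fold. LEA19 (LOC4339480, chromosome 5), a LEA protein, read 1947, 2143 and 1988 in IRAT109, 196, 187 and 229 in Geng87-304 and 272, 273 and 328 in Youmangzaogeng. It was nearly level over time in all 3 accessions and 7.46-fold higher in IRAT109 (2.90 ± 0.16 (SE), adjusted p = 2.97e-06).

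RAB16B (LOC4350453) and RAB16C (LOC4350452), dehydrins that lie beside RAB21 on chromosome 11, behaved likewise. RAB16B read 361, 458 and 556 in IRAT109 against 43.1, 38.6 and 58.4 in Geng87-304 and 55.4, 52.1 and 69.9 in Youmangzaogeng. None of the 6 lowland arrays was above the controls, so RAB16B was at least 5.05-fold higher (2.52 ± 0.10 (SE), adjusted p = 4.02e-07). RAB16C read 396, 437 and 418 against 68.1, 78.4 and 73.1 and 117, 116 and 144.7, with Youmangzaogeng above Geng87-304 and both below IRAT109 (1.80 ± 0.18 (SE), adjusted p = 0.000169). The 3 genes are close relatives, and signal shared between their probe sets was not tested. The other 2 members did not pass. LIP9 (LOC4330265), a dehydrin known to rise in cold, read 1047, 1383 and 1862 in IRAT109, 905, 1192 and 2567 in Geng87-304 and 1049, 1409 and 2845 in Youmangzaogeng, a difference of -0.11 (adjusted p = 0.672). RAB16D (LOC4350451), the fourth RAB16 gene of the list, read between 35.7 and 62.9 on the 9 arrays, with a difference of 0.12 (adjusted p = 0.483). RAB21, LEA19, RAB16B and RAB16C each read higher on all 3 arrays of IRAT109 than on all 21 other arrays of the study. Their median intensities in IRAT109 were 3821, 1988, 458 and 418, and the highest median in any other accession was that of MH63 for RAB21 (525) and RAB16B (100.3), or 531 and 107 without its mixed array.

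**Figure D2:**
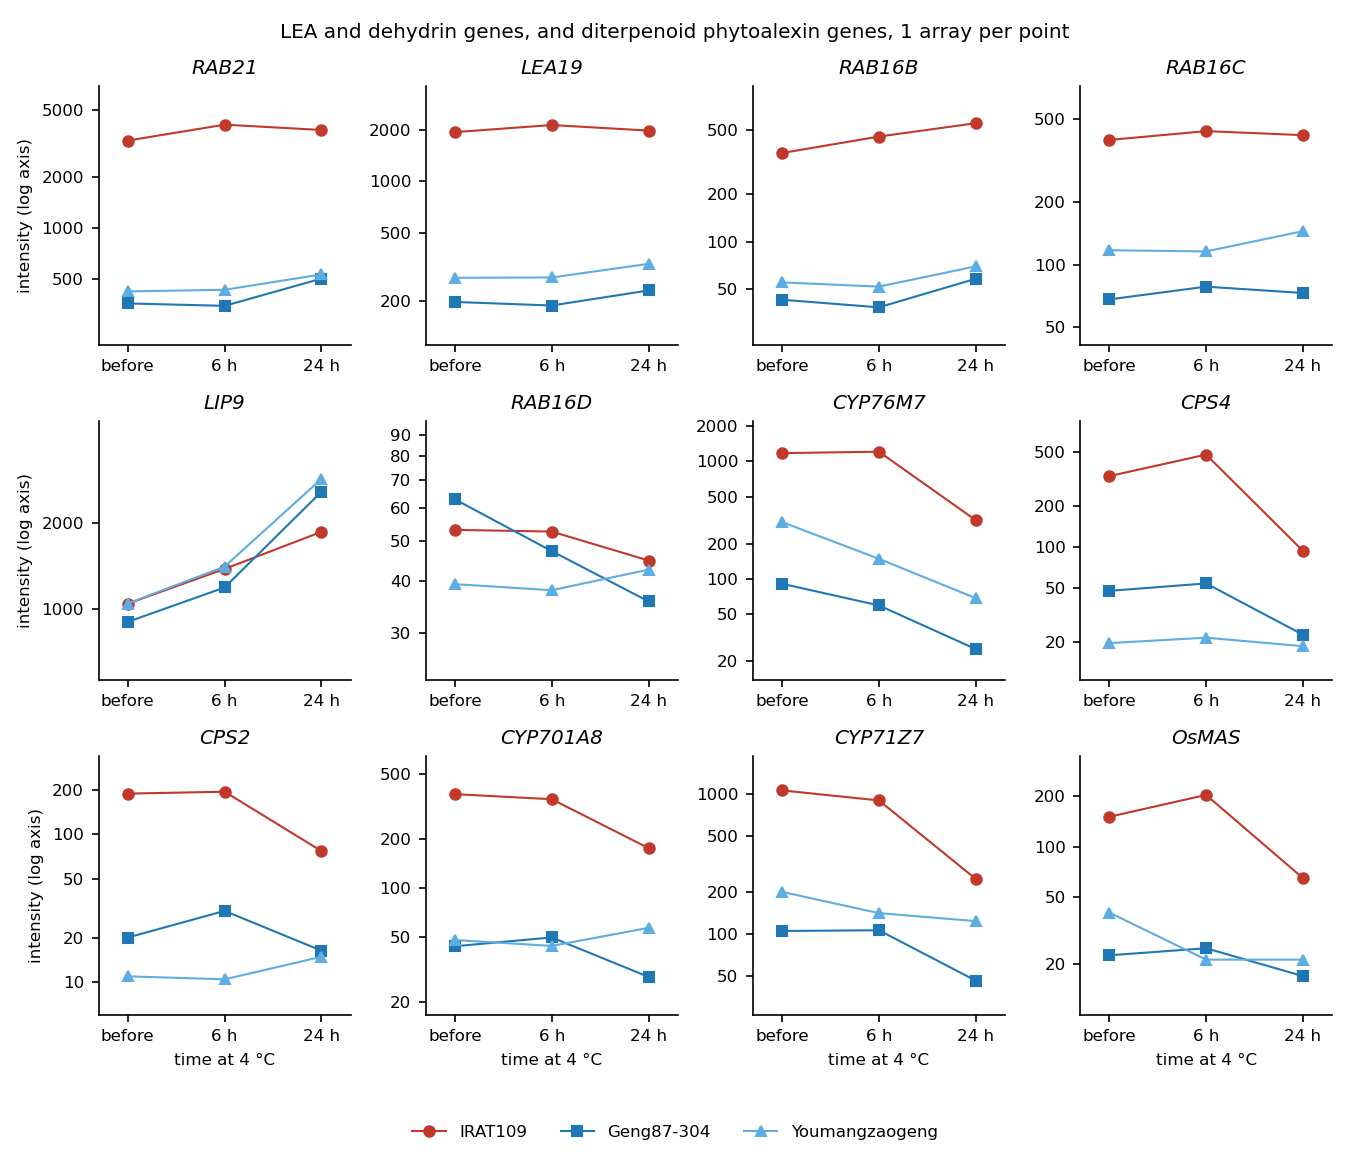
Intensity (log axis, own range per gene) against time at 4 °C for the 6 measured LEA and dehydrin genes and 6 genes of diterpenoid phytoalexin synthesis; each point is 1 array and lines join the arrays of an accession. In 10 of the 12 panels the 3 arrays of IRAT109 lie above the 6 others, and in LIP9 and RAB16D the accessions overlap; the diterpenoid genes fall in IRAT109 between 6 h and 24 h.

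Genes of abscisic acid itself were not higher as a list. The 21 measured genes of its synthesis, breakdown and signalling had a median difference of -0.01, with 4 higher and 4 lower at an unadjusted p under 0.05. Limma called none higher (beside 11.1% of all genes) and 2 lower (9.52%, close to the 10.3% of all genes). The 2 were OsPP2C08 (LOC4324182), a protein phosphatase 2C, at -0.76 (adjusted p = 0.000195), and SAPK4 (LOC4324934), a kinase of the SnRK2 family that responds to osmotic stress, at -0.65 (adjusted p = 0.00381). Of 13 measured genes listed by symbol as DREB and other AP2/ERF factors, limma called none higher (beside 11.1% of all genes) and 1 lower (7.69%, beside 10.3%). At an unadjusted p under 0.05 the counts were 2 and 2. The called gene was AP25 (LOC4331874) at -1.10 (adjusted p = 0.0182). AP25 entered the list by its symbol alone, and whether it is an AP2/ERF factor was not checked. Its call was lost without the array of IRAT109 before cold (adjusted p = 0.11) and without its 6 h array (0.135).

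Genes of diterpenoid phytoalexin synthesis formed the list with the largest share of higher calls. Of 16 measured members limma called 13 higher (81.2%, beside 11.1% of all genes) and none lower (beside 10.3%). At an unadjusted p under 0.05 the counts were 14 and 0, and the median difference was 1.03. The median was 1.32 before cold and 1.27 at 6 h, and 0.55 at 24 h. CPS4 (LOC4335090, chromosome 4), the cyclase that makes syn-copalyl diphosphate for momilactones, read 334, 481 and 93.9 in IRAT109, 47.6, 54 and 22.6 in Geng87-304 and 19.6, 21.5 and 18.6 in Youmangzaogeng. It was not above the controls on any lowland array, and at least 2.76-fold higher in IRAT109 (2.23 ± 0.28 (SE), adjusted p = 0.0007). CPS2 (LOC9266189), the cyclase that feeds the phytocassanes and other compounds of the ent series, read 188, 194 and 77.1 in IRAT109 against 20.1, 30.4 and 16.4 in Geng87-304 and 11, 10.5 and 14.9 in Youmangzaogeng. It was not above the controls on any of the 6 lowland arrays, and at least 1.58-fold higher in IRAT109 (1.85 ± 0.19 (SE), adjusted p = 0.000171).

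Of the P450 enzymes that follow the cyclases, some were also called higher. The gene labelled CYP76M7 (LOC4341447, chromosome 6) was listed by its symbol alone, and its function was not checked. CYP76M7 read 1177, 1209.8 and 316 in IRAT109, 91.2, 59.7 and 25.4 in Geng87-304 and 305, 149 and 68.8 in Youmangzaogeng. It was 6.4-fold higher in IRAT109 (2.68 ± 0.35 (SE), adjusted p = 0.00094), although its 24 h array was only a little above the highest lowland array. CYP71Z7 (LOC4329726, chromosome 2), which oxidises cassadiene, read 1067, 905 and 248 against 106, 107 and 46.6 and 201, 142 and 124 (2.18 ± 0.29 (SE), adjusted p = 0.00108). CYP701A8 (LOC4341343, chromosome 6), an oxidase of the kaurene oxidase family, read 375, 349 and 175 against 43.9, 49.7 and 28.5 and 47.9, 44.1 and 56.9, at least 3.18-fold higher (2.05 ± 0.17 (SE), adjusted p = 4.4e-05). In each of these the 3 arrays of IRAT109 lay above the 6 others, and its 24 h array was the lowest of the 3.

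The momilactone genes beside CPS4 were dimmer. OsMAS (LOC4335093), momilactone A synthase, read 150.5, 203 and 65 in IRAT109, 22.6, 24.9 and 17 in Geng87-304 and 40.6, 21.3 and 21.3 in Youmangzaogeng, at least 1.41-fold higher (1.52 ± 0.18 (SE), adjusted p = 0.000435). CYP99A2 (LOC4335096) and CYP99A3 (LOC4335091), P450 enzymes of the same pathway, differed by 1.07 (adjusted p = 0.00274) and 0.80 (adjusted p = 0.00276). For all 3 genes no lowland array was above the controls, and 2 of the 3 arrays of IRAT109 were. Of the list's other called members, DTC1, CYP71Z6 and KS6 differed by 1.25, 1.00 and 0.66, and CYP76M5 and DTS2, which were not above the controls on any of the 9 arrays, by 0.29 and 0.13. CYP76M8, CYP76M6 and KS10 did not pass. Of the 16 measured genes, 8 had all arrays of IRAT109 above all others, beside 7.96% of all genes. In 4 of the 16 the higher level held at least 2-fold at all 3 times, beside 0.787% of all genes.

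Some jasmonate genes were higher in IRAT109, among them lipoxygenases and JAZ repressors. Of 35 genes for jasmonate synthesis enzymes or JAZ proteins, 9 were called higher (25.7%, beside 11.1% of all genes), 2 lower (5.71%, beside 10.3%) and 24 neither. The median difference was 0.15, which was 0.23 against Geng87-304 alone, 0.03 against Youmangzaogeng alone and 0.50 with dim probe sets left out. The groups did not overlap at 1 of the 35 genes higher in IRAT109, CM-LOX2, beside 7.96% of all genes. They also did not overlap at 3 of the 35 lower, OPR8, OPR12 and JAZ1, of which OPR8 was called, beside 7.66% of all genes. The lipoxygenases CM-LOX1 (LOC4345993) and CM-LOX2 (LOC4345994) lie beside each other on chromosome 8. CM-LOX1 read 888, 2282 and 3788 in IRAT109, 150.2, 338 and 836 in Geng87-304 and 252, 513 and 1114 in Youmangzaogeng (2.11 ± 0.18 (SE), adjusted p = 6.56e-05). CM-LOX2 read 398, 937 and 1610.3 against 133, 188 and 339.5 and 126, 195 and 305 (1.91 ± 0.14 (SE), adjusted p = 2.25e-05). Both rose with time in all 3 accessions, and IRAT109 was highest of the 3 at each time. CM-LOX2 in IRAT109 did not exceed all 21 other arrays of the study. Its median was 300 in Lixingeng (405 without its mixed array), beside 937 in IRAT109. A pair of dimmer probe sets of CM-LOX2, above the controls on at most 1 array, differed by 0.80 (adjusted p = 0.00443) and 0.42 (adjusted p = 0.0525).

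JAZ9 (LOC4331832) and JAZ11 (LOC4331833), neighbours on chromosome 3, encode repressors that jasmonate itself induces. JAZ9 read 119, 3296 and 3375 in IRAT109, 29.4, 379 and 192 in Geng87-304 and 37.4, 795 and 486 in Youmangzaogeng (2.35 ± 0.39 (SE), adjusted p = 0.0037). The level was higher at 6 h than before cold in all 3 accessions, and at 24 h it was still as high in IRAT109 but lower than at 6 h in the other pair. JAZ11 read 559, 960.5 and 2924 against 106, 184 and 573 and 135, 316 and 1016 (1.90 ± 0.19 (SE), adjusted p = 0.000178). IRAT109 was highest at each time, but its array before cold lay below the 24 h arrays of the others, so the groups overlap when time is disregarded. JAZ1 and JAZ7, the brightest JAZ genes before cold, differed by -0.16 (adjusted p = 0.177) and 0.11 (adjusted p = 0.582).

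WRKY factors are a family with many regulators of defence genes, of which only those with a matching name were listed. Of 6 such measured genes, limma called 3 higher (50%, beside 11.1% of all genes) and none lower (beside 10.3%). The counts were the same at an unadjusted p under 0.05. WRKY62 (LOC4347070) read 207, 129 and 103 in IRAT109, 43, 37.9 and 37.9 in Geng87-304 and 41.7, 38.1 and 32.3 in Youmangzaogeng. No array of the latter pair was above the controls, and the gene was at least 1.57-fold higher in IRAT109 (1.30 ± 0.10 (SE), adjusted p = 4.12e-05). WRKY24 (LOC4327518) rose with time in all 3 accessions, with 227, 1149 and 2526 in IRAT109, 57.6, 177 and 657 in Geng87-304 and 79.4, 321 and 876 in Youmangzaogeng (1.73 ± 0.19 (SE), adjusted p = 0.000339). WRKY51 differed by 0.54 (adjusted p = 0.00758), and this call was lost without the 6 h array of IRAT109 (adjusted p = 0.0701), in the fit of all 24 arrays (0.109) and with time left out (0.64).

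A pair of further enzymes of defence chemistry and phenolics were higher. CYP71P1 (LOC4351945, chromosome 12), which makes serotonin from tryptamine, read 599.7, 718 and 497 in IRAT109, 191, 184 and 122 in Geng87-304 and 189, 164 and 164 in Youmangzaogeng (1.66 ± 0.10 (SE), adjusted p = 8.37e-06). 4CL5 (LOC4345717, chromosome 8), a 4-coumarate:CoA ligase of the phenylpropanoid pathway, read 579.7, 825 and 693 against 182, 186 and 143 and 225, 243 and 215 (1.66 ± 0.14 (SE), adjusted p = 6.55e-05). The groups did not overlap for either gene. Of 20 measured flavonoid and phenylpropanoid genes 6 were called higher (30%, beside 11.1% of all genes) and 4 lower (20%, beside 10.3%). Of 29 genes listed as cytochrome P450, 10 were called higher (34.5%) and 1 lower (3.45%), and 7 of the 10 are also in the diterpenoid list.

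Transporters of mineral nutrients were the largest list, with 87 measured genes, of which 20 were called higher (23%) and 5 lower (5.75%), beside 11.1% and 10.3% of all genes. The median difference was 0.05, close to that of all genes. YSL13 (LOC4336441, chromosome 4), a yellow stripe-like transporter of the family that moves metals bound to nicotianamine, read 564, 626 and 485 in IRAT109, 100.1, 120.4 and 125 in Geng87-304 and 181, 192 and 210.3 in Youmangzaogeng (1.69 ± 0.20 (SE), adjusted p = 0.000493). HAK17 (LOC4347211, chromosome 9), a potassium transporter of the HAK family, read 1056, 1001 and 696 against 256, 328 and 283 and 273, 237 and 265 (1.62 ± 0.13 (SE), adjusted p = 5.13e-05). AMT3-3 (LOC4329628, chromosome 2), an ammonium transporter, read 194, 165 and 105 against 28.5, 29.1 and 25.9 and 52.1, 43.7 and 24, at least 1.67-fold higher (1.49 ± 0.12 (SE), adjusted p = 3.44e-05). In all 3 genes the arrays of IRAT109 lay above the others at each time. YSL13 and HAK17 also lay above all 21 other arrays of the study, and AMT3-3 did not.

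Phosphate and other transporters followed. PHT1-8 (LOC4348741), a phosphate transporter, read 381, 544 and 519 in IRAT109, 123, 177 and 201 in Geng87-304 and 167, 199 and 175 in Youmangzaogeng (1.32 ± 0.10 (SE), adjusted p = 2.89e-05). AMT3-2, NRAMP3 and AKT1, an ammonium transporter, a metal transporter and a potassium channel, differed by 1.40, 0.83 and 0.67, each with all arrays of IRAT109 above the others. The 5 lower genes were YSL14, HAK10, ZIP4, YSL6 and ZIP5, between -0.77 and -0.18. The root marker sum was also higher in IRAT109 at each time, and 1 of the 5 root markers was called higher. NAAT1 (LOC9267778, chromosome 2), an enzyme that makes iron-binding phytosiderophores, read 1580.5, 1604 and 824 in IRAT109, 900.2, 548 and 369.8 in Geng87-304 and 519.9, 466 and 287 in Youmangzaogeng (1.34 ± 0.17 (SE), adjusted p = 0.000745). NAS1, NAS2, NAS3 and NIP2-1, the other root markers, differed by 1.80, 1.36, -0.08 and 0.14 and did not pass. The part of root material in the transporter result was not tested.

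**Figure D3:**
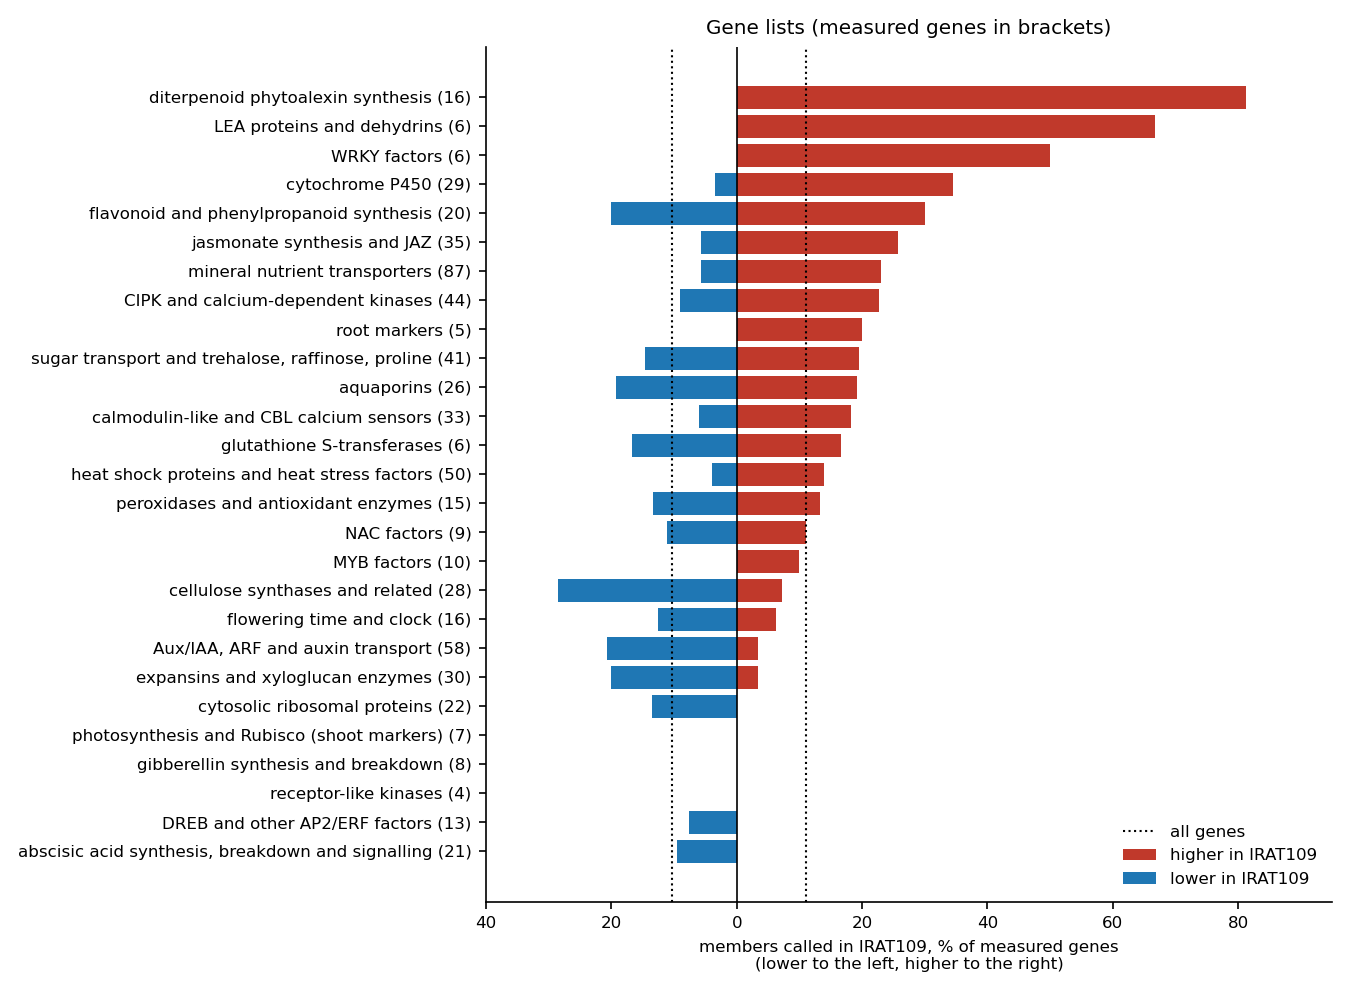
Share of the measured genes of each list called higher in IRAT109 (right of 0) or lower (left of 0) at an adjusted p under 0.05, with the number of measured genes in brackets and the shares of all 17905 genes, 11.1% higher and 10.3% lower, as dotted lines. Diterpenoid phytoalexin genes (13 of 16) and LEA and dehydrin genes (4 of 6) reach furthest right, and cellulose synthases (8 of 28) furthest left.

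Several cellulose synthase subunits were lower in IRAT109 by less than 2-fold. Of 28 measured cellulose synthases and related genes, 8 were called lower (28.6%, beside 10.3% of all genes) and 2 higher (7.14%, beside 11.1%), with a median of -0.09. All 8 lower ones were CESA genes, the catalytic subunits of cellulose synthase, with differences of -0.84 to -0.50. CESA4 (LOC4324625), of the secondary wall, read 692, 370.4 and 489 in IRAT109, 1116, 955 and 647 in Geng87-304 and 1253, 780.4 and 922 in Youmangzaogeng (-0.84 ± 0.14 (SE), adjusted p = 0.00408). CESA1 (LOC4337958), of the primary wall, read 1294, 1048 and 1580.1 against 2711, 2442 and 2031 and 2527, 1882 and 2065 (-0.79 ± 0.14 (SE), adjusted p = 0.00426). For CESA1 the groups did not overlap, while for CESA4 the array of IRAT109 before cold lay above the 24 h array of Geng87-304. The 2 higher genes were the cellulose synthase-like CSLD2 and CSLE1. The calls of CESA1, CESA7 and CESA8 were lost without the 6 h array of IRAT109, with adjusted p-values of 0.0526, 0.0738 and 0.081, and that of CESA8 also without its array before cold (0.0655).

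Of 30 measured expansins and xyloglucan enzymes, which loosen the wall, 6 were called lower (20%, beside 10.3% of all genes) and 1 higher (3.33%, beside 11.1%). EXPB2 (LOC4349348, chromosome 10), a beta-expansin, read 345, 209.6 and 248 in IRAT109, 843, 727 and 701 in Geng87-304 and 589.9, 631 and 579 in Youmangzaogeng. All arrays of IRAT109 lay below the others (-1.26 ± 0.14 (SE), adjusted p = 0.000407). EXPB11, EXP2 and EXPB4 were also lower, at -1.002, -0.84 and -0.76, with overlap between the groups. Each of these 3 genes read lower at 6 h than before cold and lower again at 24 h in all 3 accessions. The calls of EXPB11 and EXPB4 were lost without the array of IRAT109 before cold (adjusted p = 0.128 for each) and without its 6 h array (0.123 and 0.132), that of EXPB11 also against Geng87-304 alone (0.0751) and that of EXPB4 in the fit of all 24 arrays (0.168).

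Of 58 measured genes of auxin response and transport, 12 were called lower (20.7%, beside 10.3% of all genes) and 2 higher (3.45%, beside 11.1%). IAA1 (LOC4334069), an Aux/IAA repressor, read 394, 322 and 387 in IRAT109, 1065, 830.5 and 622 in Geng87-304 and 542, 628 and 785 in Youmangzaogeng (-0.93 ± 0.19 (SE), adjusted p = 0.0115). ARF15 (LOC9268260), an auxin response factor, read 626, 626 and 559 against 1124, 1370.1 and 1154 and 1338, 1076 and 858 (-0.89 ± 0.12 (SE), adjusted p = 0.00136). In 11 of the 58 genes all arrays of IRAT109 lay below the others, beside 7.66% of all genes. The higher genes were GH3-8 (0.89), which conjugates auxin, and IAA18 (0.27), which was not above the controls on any array. The call of IAA1 was lost without the array of IRAT109 before cold (adjusted p = 0.0625) and without its 6 h array (0.0992).

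Calcium kinases and carriers differed gene by gene. Of 44 measured CBL-interacting (CIPK) and calcium-dependent kinases, 10 were called higher (22.7%, beside 11.1% of all genes) and 4 lower (9.09%, close to the 10.3% of all genes). CIPK10 (LOC4332786, chromosome 3) read 53.5, 52.9 and 41.5 in IRAT109, where it was not above the controls, 230.0, 163 and 173 in Geng87-304 and 198, 139 and 139.5 in Youmangzaogeng. It was at least 2.12-fold lower (-1.33 ± 0.10 (SE), adjusted p = 2.78e-05) and below all 21 other arrays of the study. CIPK23 (LOC4342410), which controls nutrient uptake channels, read 623, 843 and 691 against 408, 313 and 346 and 359, 419 and 360.2 (0.91 ± 0.12 (SE), adjusted p = 0.00104), while a second probe set of CIPK23 differed by 0.02 (adjusted p = 0.921).

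Of 26 measured aquaporins, water and solute channels, 5 were called higher (19.2%, beside 11.1% of all genes) and 5 lower (19.2%, beside 10.3%). PIP1-3 (LOC4331194), of the plasma membrane, read 4509, 4140.2 and 2870.5 in IRAT109, 1836, 1775 and 1302 in Geng87-304 and 2472, 2128 and 1096 in Youmangzaogeng, with no overlap (1.13 ± 0.12 (SE), adjusted p = 0.000188). NIP1-1 (LOC4328814) read 442, 214 and 78.4 against 1622, 936 and 184 and 1247, 709 and 210.1, lowest in IRAT109 at each time (-1.48 ± 0.16 (SE), adjusted p = 0.000224). Of 41 genes of sugar transport and osmolytes 8 were called higher (19.5%, beside 11.1% of all genes) and 6 lower (14.6%, beside 10.3%). MST3 (LOC4342198), a monosaccharide transporter, read 3432, 3784 and 4059.5 in IRAT109 against 1270.1, 1486 and 1910.4 and 1212, 1170.2 and 2056 (1.32 ± 0.11 (SE), adjusted p = 6.5e-05). SWEET11 (LOC4346153), a sucrose exporter, read 59.7, 48.3 and 107 against 206, 181 and 206 and 139, 132 and 145.4 (-0.97 ± 0.16 (SE), adjusted p = 0.00392). Without the 6 h array of IRAT109 the call of SWEET11 was lost (adjusted p = 0.0504).

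Among flowering and clock genes 1 of 16 was called higher (6.25%, beside 11.1% of all genes) and 2 lower (12.5%, beside 10.3%). PRR37 (LOC4344399, chromosome 7), a pseudo-response regulator that delays flowering in long days, read 354, 557 and 634 in IRAT109, 179, 254 and 382 in Geng87-304 and 188, 263 and 322 in Youmangzaogeng (0.89 ± 0.09 (SE), adjusted p = 0.000153). MADS18 (LOC4343851, chromosome 7), a MADS-box factor of floral meristem identity, read 149, 107 and 95.3 against 307, 251 and 207 and 344, 327 and 221 (-1.04 ± 0.10 (SE), adjusted p = 0.000111). IRAT109 was highest at each time for PRR37 and lowest on every array for MADS18.

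Of 50 heat shock proteins and heat stress factors 7 were called higher (14%, beside 11.1% of all genes) and 2 lower (4%, beside 10.3%). HSF15 (LOC4339409) at 1.47 (adjusted p = 0.000101) and HSP18.8 (LOC4343386) at 0.85 (adjusted p = 0.00488) were the furthest of those higher. PRX74 (LOC4339222), a peroxidase, read 47, 31.8 and 40.6 in IRAT109, never above the controls, 268, 217 and 68.7 in Geng87-304 and 191, 151 and 381 in Youmangzaogeng, at least 2.34-fold lower (-1.65 ± 0.35 (SE), adjusted p = 0.0137). Its call was lost without the array of IRAT109 before cold (adjusted p = 0.0804), without that at 6 h (0.0962) and without that at 24 h (0.0503). Calmodulin-like and CBL calcium sensors had 6 higher (18.2%) and 2 lower (6.06%) of 33, beside the same 11.1% and 10.3% of all genes. Peroxidases and antioxidant enzymes had 2 and 2 of 15 (13.3% each), NAC factors 1 and 1 of 9 (11.1% each) and glutathione S-transferases 1 and 1 of 6 (16.7% each). MYB factors had 1 (10%) and 0 of 10, against 3 and 1 at an unadjusted p under 0.05. Cytosolic ribosomal proteins had 0 and 3 (13.6%) of 22, against 0 and 6. Limma called none of 8 gibberellin genes and 4 receptor-like kinases, and none of these had an unadjusted p under 0.05.

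Outside the lists, genes named by the size of their difference, each through 1 representative probe set, included METK3 (LOC4325163, chromosome 1), an S-adenosylmethionine synthase, and BC1L9 (LOC4349011, chromosome 10), a COBRA-like protein of the cell wall. METK3 read 372, 363 and 328 in IRAT109, 25.8, 25.1 and 23.8 in Geng87-304 and 21.5, 24.6 and 27.1 in Youmangzaogeng. It was at the array background in the latter pair and at least 3.96-fold higher in IRAT109 (2.77 ± 0.06 (SE), adjusted p = 7e-09). BC1L9 read 974, 1049.7 and 1529.7 against 174, 195 and 395 and 139.5, 179.8 and 329.5, 4.72-fold higher (2.24 ± 0.11 (SE), adjusted p = 1.86e-06). ELA3 (LOC4341858, chromosome 6) read 349, 398 and 389 against 50.7, 57.2 and 52.5 and 70.7, 69.9 and 71, at least 4.23-fold higher (2.13 ± 0.10 (SE), adjusted p = 9.44e-07). For BC1L9 and ELA3 the level in IRAT109 also exceeded all 21 other arrays of the study, whereas METK3 was as high or higher in 9311, ZS97, Muguanuo and MH63, with medians of 512, 456, 381 and 552 (561 without its mixed array) beside 363 in IRAT109.

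Several named genes with a clear signal in the lowland accessions read at background in IRAT109. AT15 (LOC4347960, chromosome 10) read 12.9, 12.7 and 12.5 in IRAT109, 789, 649.5 and 445 in Geng87-304 and 383, 483 and 528 in Youmangzaogeng. It was at least 6.59-fold lower (-3.65 ± 0.19 (SE), adjusted p = 2.56e-06). SDH3-2 (LOC4343404, chromosome 7), a subunit of succinate dehydrogenase of the mitochondrial respiratory chain, read 69.4, 61.4 and 43.1 against 894, 895 and 589.9 and 963, 896 and 622, at least 9.89-fold lower (-3.21 ± 0.08 (SE), adjusted p = 1.89e-08). In both, the lowest lowland array was far above the highest of IRAT109.

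OsC3H2 (LOC4327304, chromosome 1), a CCCH zinc finger gene, rose with time in the lowland pair, with 398, 617 and 1576 in Geng87-304 and 331, 499 and 1463 in Youmangzaogeng. In IRAT109 it read 19.8, 23 and 57.6 and was never above the controls, so a change with time cannot be read there. It was at least 8.37-fold lower in IRAT109 (-3.49 ± 0.18 (SE), adjusted p = 2.73e-06). A second probe set of OsC3H2, above the controls on all 9 arrays, differed by -0.35 and did not pass (adjusted p = 0.0844), so its probe sets disagree on the size. OsPP2C12 (LOC4328768, chromosome 2), a protein phosphatase 2C, read 45.1, 44.7 and 78 against 362, 351 and 678 and 319, 415 and 663, 5.5-fold lower (-2.46 ± 0.10 (SE), adjusted p = 4.02e-07). It rose at 24 h in the lowland pair. In IRAT109 it was above the controls on 1 of the 3 arrays, that at 24 h (78 against 70.5). A change with time therefore cannot be read there either.

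LTP110-A (LOC4349601, chromosome 11), a lipid transfer protein, read 509, 381 and 518 in IRAT109, 4474, 3622 and 1404 in Geng87-304 and 2201, 2068 and 2479.9 in Youmangzaogeng. It was bright in every accession and 5.14-fold lower in IRAT109 (-2.36 ± 0.29 (SE), adjusted p = 0.000636). GRXS9 (LOC9269297, chromosome 5), a glutaredoxin, read 374, 369.9 and 655 against 1155, 1255 and 2149 and 1880.0, 1427 and 2855 (-1.84 ± 0.15 (SE), adjusted p = 5.25e-05). GLP2 (LOC4344846, chromosome 8), a germin-like protein, read 9.2, 10.2 and 12.9 against 164, 175 and 164 and 84.5, 104 and 160.4, at least 1.7-fold lower (-1.99 ± 0.17 (SE), adjusted p = 5.55e-05). Its second probe set differed by -0.73 and did not pass (adjusted p = 0.0548).

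A pair of beta-tubulins, proteins of microtubules, was also lower. OSTB-16 (LOC4327550, chromosome 1) read 730.0, 555 and 502 in IRAT109, 2276, 2137 and 1355 in Geng87-304 and 1916, 1349.8 and 1523 in Youmangzaogeng (-1.50 ± 0.14 (SE), adjusted p = 9.98e-05). RTUB-2 (LOC4341810, chromosome 6) read 70.2, 59.6 and 93.1 against 314, 357 and 270.0 and 309.7, 316 and 328 (-1.72 ± 0.12 (SE), adjusted p = 1.32e-05). A further probe set of RTUB-2, bright on all 9 arrays with 788 to 1207, differed by -0.17 (adjusted p = 0.356), and another by 0.07 (adjusted p = 0.536), so its level differed on 1 probe set of 3. EME1 (LOC4337213, chromosome 4), a subunit of an endonuclease that resolves joined DNA strands, read 49.1, 43.1 and 45.8 against 203, 223 and 219 and 182, 199.8 and 162, at least 2.45-fold lower (-1.56 ± 0.09 (SE), adjusted p = 6.87e-06).

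The widest differences were at genes with no name in the tables. LOC4341377 on chromosome 6 read 22.9, 33.9 and 22.1 in IRAT109, 7476, 7516 and 7554 in Geng87-304 and 8309, 8227 and 7753 in Youmangzaogeng, at least 96.9-fold lower (-7.08 ± 0.09 (SE), adjusted p = 2.8e-10). A second probe set of LOC4341377 read 83.3 to 101 on all 9 arrays and did not differ by the test (-0.02, adjusted p = 0.912). LOC4352358 on chromosome 12 read 4.6, 15.8 and 8.4 against 2779.6, 2972 and 2992 and 3240.1, 3221 and 2558, at least 36.7-fold lower. LOC4326970 on chromosome 1, LOC4345110 on chromosome 8 and LOC4348120 on chromosome 10 followed, with differences of -5.25, -4.80 and -4.48. The first of these was at least 25.6-fold and the second at least 16.5-fold lower.

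In the other direction LOC4340994 on chromosome 6 read 644, 812 and 2212 in IRAT109, 8.2, 14.7 and 10.7 in Geng87-304 and 8.1, 13.9 and 13.1 in Youmangzaogeng. It was at least 11.7-fold higher (4.65 ± 0.24 (SE), adjusted p = 2.6e-06) and rose further at 24 h in IRAT109. LOC4348984 on chromosome 10 was flat over time at 840.5, 857 and 866 against 16.8, 14.7 and 22.5 and 16.4, 18.8 and 21.7, at least 9.56-fold higher. LOC4346665 on chromosome 9, LOC4350133 on chromosome 11 and LOC4334201 on chromosome 3 differed by 3.89, 3.86 and 3.40, and a second, dim probe set of LOC4334201 by -0.15 (adjusted p = 0.17). The minimum folds of the 3 genes over the controls were 6.07, 6.26 and 9.21. For LOC4350133 the signal of IRAT109 was 887, 816 and 242 over the 3 times, while the other accessions were never above the controls.

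Some of the genes that held lie beside each other. Among the 272 genes, 44 fell into 19 runs of 2 or more neighbouring measured genes with a difference in 1 direction. The longest, of 4 genes, was LOC4348120, LOC4348121, LOC4348122 and LOC4348123 on chromosome 10, where the median intensities of IRAT109 were 157, 308, 112 and 298 and those of the lowland arrays 4373, 3406, 1809 and 2452. RAB16C, RAB16B and RAB21 on chromosome 11 formed a run of 3, and JAZ9 with JAZ11 and CM-LOX1 with CM-LOX2 runs of 2. Calls were spread over all 12 chromosomes, from 19.6% of the measured genes on chromosome 9 to 24.5% on chromosome 10.

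The other 5 accessions show which levels IRAT109 shared. Of these 9311, ZS97 and MH63 are known as indica rice, the other large group of cultivated rice. Among the 258 probe sets lower in IRAT109, 9311 was nearer to the level of IRAT109 than to that of the lowland pair at 177 (68.6%), ZS97 at 175 (67.8%) and MH63 at 176 (68.2%), while Muguanuo was at 52 (20.2%) and Lixingeng at 49 (19%, or 51 without its mixed array). Among the 258 higher ones the counts were 48, 44, 53, 31 and 40 in the same order, and without the mixed arrays 52 for MH63 and 50 for Lixingeng. All 3 arrays of IRAT109 lay above all 21 other arrays of the study at 143 of the 258 higher probe sets and below all of them at 63 of the 258 lower ones, and both counts were the same without the mixed arrays. These are descriptions with no test, since the members were chosen by the level of IRAT109.

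Named genes fell on both sides of the division between indica and the rest. AT15 had medians of 12.7 in IRAT109, 12.6 in 9311, 14.2 in ZS97 and 13.3 in MH63 (12.9 without its mixed array), but 295 in Muguanuo and 187 in Lixingeng (288 without its mixed array). EME1, GLP2, LOC4341377 and LOC4352358 had the same split, with IRAT109 among the low accessions. OsPP2C12, LTP110-A, RTUB-2, OSTB-16, LOC4345110, LOC4348120 and CIPK10 were lowest in IRAT109 alone, where OsPP2C12 had a median of 45.1 against 288 to 590.1 in the 5 other accessions. LOC4348984 was the reverse case of a level shared with the indica accessions, at 857 in IRAT109, 894 in 9311, 1325 in ZS97 and 863 in MH63 (943 without its mixed array). LOC4346665 and LOC4350133 were bright in IRAT109 alone, with medians of 517 and 816 and the highest other median 17.6, of LOC4346665 in MH63.

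**Figure D4:**
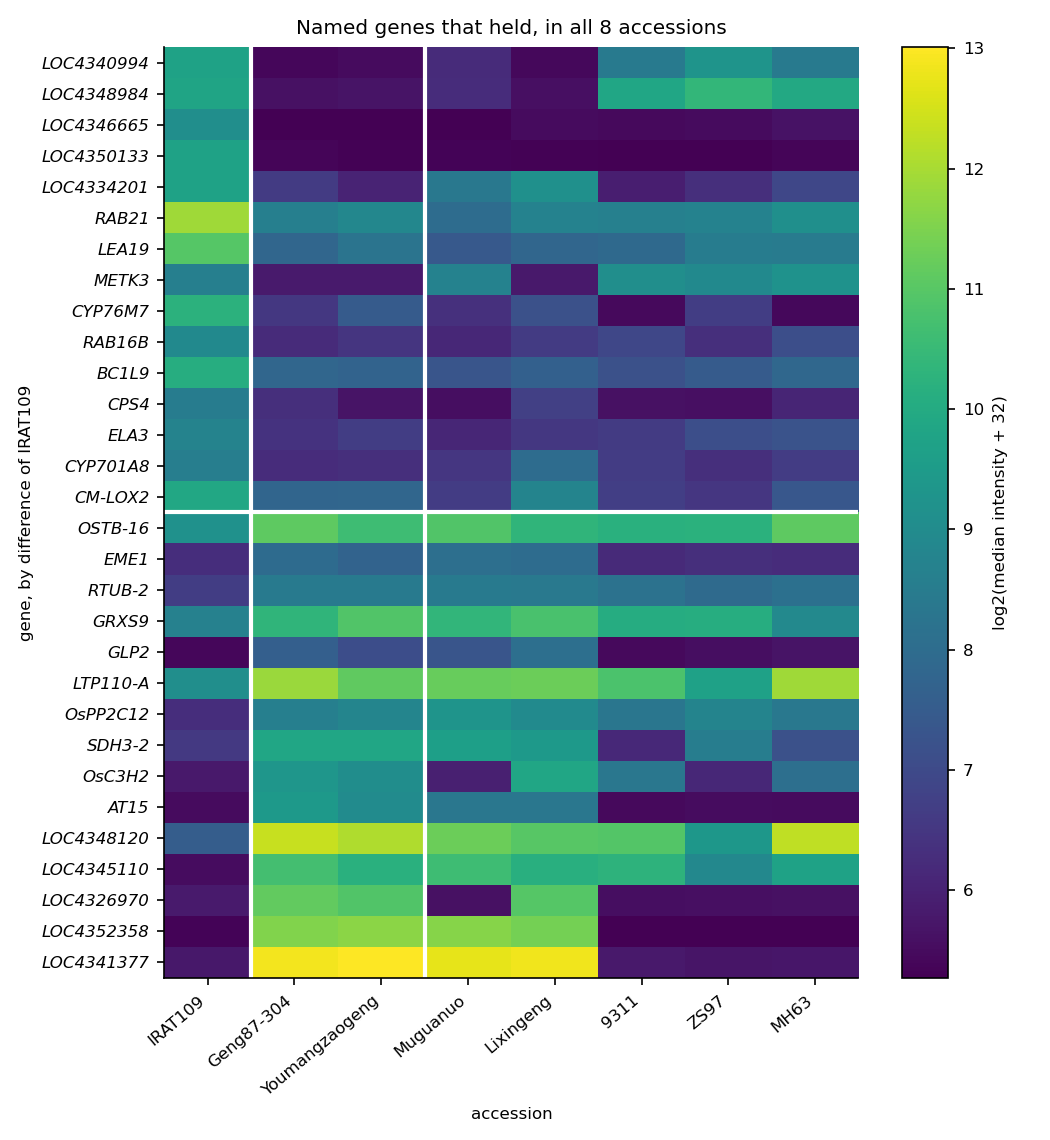
Median log2(intensity + 32) over the arrays of each accession (colour; the mixed arrays of Lixingeng and MH63 left out) for the 30 genes named by size of difference, sorted by the difference of IRAT109; the horizontal line parts higher from lower genes, and the vertical lines set off IRAT109 and the pair it was compared with. RAB21, LEA19 and BC1L9 are brightest in IRAT109, while LOC4341377 and LOC4352358 are dark in IRAT109 and in 9311, ZS97 and MH63.

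Differences that appeared in cold are given as values only, since each accession had 1 array per time. They were taken as probe sets at which IRAT109 differed by under 0.5 on the log2 scale from both accessions before cold, and by at least 1 from both, in 1 direction, at 6 h or 24 h. There were 86 of 57194 (0.15%), 64 higher and 22 lower in IRAT109. At 6 h there were 31 (0.0542%), 18 higher and 13 lower, at 24 h 68 (0.119%), 54 higher and 14 lower, and 13 appeared at both times.

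The furthest apart was LOC4336904 on chromosome 4, which has no name in the tables and was singled out after its values were seen. It read 49.5, 1992 and 6920.2 in IRAT109, 50.9, 101 and 241 in Geng87-304 and 45.7, 131 and 276 in Youmangzaogeng. Before cold all 3 read below the highest control of their array, 80.9 in IRAT109, 95.7 in Geng87-304 and 99.9 in Youmangzaogeng. Whether they started level therefore cannot be read. The level climbed to above the controls in all 3. Starting from background, the log2 change to 24 h was 6.42 in IRAT109, 1.72 in Geng87-304 and 1.99 in Youmangzaogeng.

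Of the named genes, SPP1 (LOC4325448), a phosphatase that completes sucrose synthesis, read 1296, 2150.1 and 1724 in IRAT109, 1199.9, 973 and 1059 in Geng87-304 and 981, 767 and 562 in Youmangzaogeng. At 6 h it was higher than before cold in IRAT109 and lower in the other pair. CSLD2 (LOC4339895), a cellulose synthase-like gene, read 231, 466 and 689 against 218, 261 and 289 and 251, 248 and 277, with the steepest climb in IRAT109. CPK4 (LOC4328155), a calcium-dependent kinase, read 263, 899 and 2369 against 293, 434 and 1126 and 276, 618 and 1165, higher with time in all 3. SIP1-1 (LOC4325361), an aquaporin of the small basic type, was lower with time in all 3 and least so in IRAT109, with 1113, 1009 and 851 against 806, 499 and 314 and 904, 491 and 293.

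A pair of SPX genes, whose proteins sense the phosphate supply, was on the list. SPX2 (LOC4328654) read 822, 1298 and 2044 in IRAT109, 732, 425 and 1883 in Geng87-304 and 854, 440.2 and 1644 in Youmangzaogeng. At 6 h it was higher than before cold in IRAT109 and lower in the other pair, and at 24 h the 3 accessions were close again. SPX5 (LOC4333078) read 35.8, 74.3 and 247 against 29.9, 18 and 151 and 23.4, 15.4 and 87.5. No accession was above the controls before cold or at 6 h, so a change of SPX5 at 6 h cannot be read. HSF07 (LOC4329526), a heat stress factor, was lower in IRAT109, with 43.7, 113 and 549 against 64.9, 786 and 1739.8 and 71.6, 422 and 1043, although higher with time in all 3. DRB4 (LOC4345448), a double-stranded RNA binding protein, read 569.5, 424 and 301 against 742, 659 and 935 and 802, 719 and 841, lower with time in IRAT109, while at 24 h the lowland pair stood above its level before cold.

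**Figure D5:**
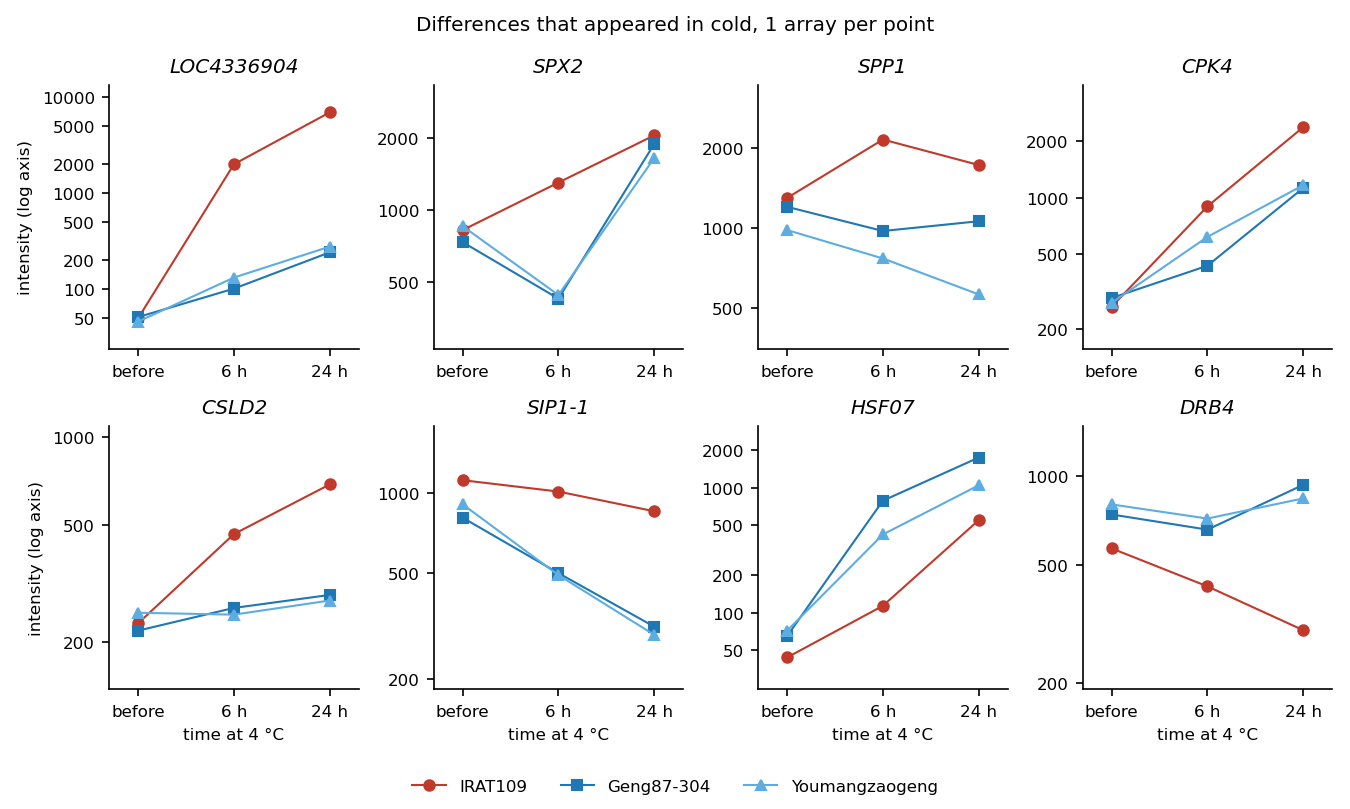
Intensity (log axis, own range per gene) against time at 4 °C for LOC4336904 and 7 named genes whose difference appeared in cold; each point is 1 array and lines join the arrays of an accession. LOC4336904 reaches 6920.2 in IRAT109 at 24 h against 241 and 276, and SPX2 parts at 6 h alone.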

How the data were processed

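The deposited table gave the authors' probe set intensity on a linear scale for 24 arrays of 8 accessions. RNA was extracted with TRIzol and labelled as biotin cRNA, per the labels' protocols. Software, summarisation and scaling were not given in the sources used here. Of 57381 probe sets, 187 controls and reporters were left out. The 9 arrays were fitted in limma 3.58.1 (R 4.3.3) on log2(intensity + 32) with terms for group and time, empirical Bayes with a mean trend and 5 residual degrees of freedom. Arrays share a number only as a time point, so time was the block in the main model. Of the tested probe sets, 22436 had 1 gene, 95 several and 34663 none in the annotation table. A gene is represented by 1 probe set, and 2449 of the 17905 genes had a name. Genes were named by size of difference (10 named and 5 of any genes in each direction, among those that held and did not overlap), as up to 4 called members per list, and as up to 6 named genes in each direction in cold. The comparison, the lists and the tests were chosen with earlier results of these data known, the lists were narrowed by gene name later, and 2 alternatives were chosen after seeing the data. On simulated data with 200 changed probe sets, the fit recovered 96 of 100 log2 changes of 1 and 99 of 100 of 2, with 7 false calls. The simulated noise was independent between arrays, with nothing shared by the arrays of an accession. The 7 false calls therefore do not give the error rate of the real calls. Alternatives covered the offset, normalisation, filter, variance model, time, accessions and each array.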

Additional observations from a re-analysis of the deposited data

Results flagged for a closer look

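In 3 of the 104 genes examined, 1 of the 6 lowland arrays stood apart from the other 5, where chance alone gives about 1 in 20. NAC2 read 305 in Youmangzaogeng at 24 h, the highest of the 6. CYP71P1 read 123 in Geng87-304 at 24 h, the lowest of the 6. RPL7A-1, a ribosomal protein gene, read 1253 in Youmangzaogeng before cold, the lowest of the 6. All 3 genes kept all arrays of IRAT109 on 1 side of the lowland arrays.

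SPX2 changed in opposite directions at 6 h. Its log2 change from before cold was 0.64 in IRAT109, -0.74 in Geng87-304 and -0.91 in Youmangzaogeng, with 1 array per value. The difference was not tested.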

How the results depend on the processing

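Of the 98 named genes with a test, 56 kept sign and call in each of up to 24 alternatives. The number of probe sets called was 7048 to 7684 under the other offsets, both normalisations, no trend and either lowland accession alone. The filter on dim probe sets gave 5314 of only 19957 tested. Leaving out shared probe sets gave 5669, also of fewer tested. The number was 6074 with accession as a random block, 8506 with all 24 arrays and 10172 with the 9 arrays and accession fixed. With the replicate block of time left out ("no replicate block") it was 3069, 1698 higher and 1371 lower, and 35 of the 98 genes lost their call, JAZ9 (adjusted p = 0.344), WRKY24 (0.369) and CM-LOX1 (0.0883) among them. With 22 arrays, the mixed ones left out, it was 10929, 5869 higher and 5060 lower. An offset of 1 gave 1840 calls of at least 2-fold and 913 probe sets that held, 453 higher and 460 lower. Against Geng87-304 alone 823 held, 474 of them higher. Leaving out each array in turn gave 3346 to 6779 calls, 1903 to 3637 higher and 1443 to 3142 lower, with 891 to 1205 at least 2-fold. It gave 522 to 773 that held, 261 to 360 higher and 260 to 413 lower. The lowest numbers of calls and of calls of at least 2-fold came without the 6 h array of IRAT109. The lowest numbers that held came without the 6 h array of Geng87-304 (in all and higher) and of Youmangzaogeng (lower). There were 4096 calls (2420 higher, 1676 lower) without the array before cold of IRAT109, and 413 lower ones held without its 24 h array, where 2 times had to hold. Of 27 list medians, 9 took both signs over the alternatives, and 60 of their values moved by 1 SD or more. Against Geng87-304 alone flavonoid genes had -0.0018 and gibberellin genes 0.024, and against Youmangzaogeng alone receptor-like kinases had -0.0045. Differences that appeared in cold numbered 70 to 99. The cause of these shifts was not tested. Signal over background limits the result, since 178 of the 258 lower probe sets were never above the controls in IRAT109.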
